A study of Homo sapiens with 12 samples.

Results

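The proteasome is the protease complex that breaks down ubiquitin-tagged proteins in the cytosol and nucleus. Its 20S core is a stack of alpha and beta rings in which threonine-active beta subunits cut the substrate, and its 19S regulatory particle binds, deubiquitinates and unfolds the substrate. In cells exposed to interferon, and constitutively in many cells of the blood lineage, immunosubunits replace the catalytic beta subunits and the PA28 activator can cap the core, which alters the peptides made available for MHC class I.

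The genes described here are the 44 of the 36866 genes in the deposited table that it annotates to the KEGG proteasome pathway. They comprised 8 alpha subunits of the 20S core, 7 constitutive beta subunits, 3 immunosubunits, the thymus-specific beta subunit PSMB11, 6 ATPases and 4 non-ATPase subunits of the 19S base, 9 subunits of the 19S lid, 4 activator subunits, the inhibitor PSMF1 and the maturation factor POMP. IFNG, which the same pathway holds, was left out by the rule and had no row in the table. The rule reads the annotation and no measured value.

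THP-1 and U-937 are established human leukemia lines of monocytic type, labelled as acute myeloid leukemia. Cells of each line were incubated for 24 h with honokiol, a biphenol from magnolia bark, or with 0.1% DMSO as the vehicle, which gave 4 groups of 3 poly(A) mRNA libraries. The labels list honokiol at 20 and 35 µM without naming the line, so line and dose cannot be told apart. The labels do not say that libraries of a group came from separate cultures, so p-values measure only the spread between these libraries, and each line is 1 cell line grown alone. SPI1, PTPRC, LYZ, CEBPA, CD33 and ITGAM, markers of myeloid cells, were detected in all 12 libraries, MPO stood at 20.2 FPKM or more in THP-1 and at 0.17 FPKM or less in U-937, and T cell, epithelial and fibroblast markers stayed at 0.75 FPKM or less.

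Libraries held 57406966 to 75065752 estimated counts. DMSO library 1 of each line stood apart: mitochondrial genes took 13.7% of the counts of the THP-1 library and 12.6% of the U-937 library, whereas they held 5.61% to 7.55% elsewhere. FPKM of 26 of the 42 proteasome genes in THP-1, and of 29 of 42 in U-937, lay below both other DMSO libraries there. Honokiol library 1 of U-937 was also low, with 33 of 42 genes below both other honokiol libraries. Refits without 1 library were made for the genes with the highest and lowest estimates and for PSMB8 to PSMB10 between lines. Medians, counts of calls and pair ratios were refitted too. Refitted estimates of single genes that moved by over 1.5 times without 1 of these libraries are given with and without it. Other single-gene estimates were not refitted.

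Transcripts of the complex were abundant. FPKM, a level scaled to transcript length and sequencing depth, reached at least 5 in every library for 40 of the 44 genes and at least 0.5 for 42. The alpha subunit PSMA7 had the highest mean in each group, 98.1 FPKM in THP-1 and 131 FPKM in U-937 with DMSO. The next with DMSO was the beta subunit PSMB3 in THP-1, at 91.9 FPKM, and the ubiquitin receptor ADRM1 in U-937, at 87.2 FPKM, with its libraries from 65.7 to 98.8 FPKM. SEM1, a small acidic lid protein, had a mean of 3.97 FPKM. PSMB11, which is made in the thymic cortex, was listed at 0.05 FPKM or less in each library, and PSMA8, the testis-type paralog of PSMA7, was above 0.5 FPKM in U-937 alone. Taken as a share of the counts outside mitochondrial genes, the 44 genes held 0.472% to 0.502% in THP-1 and 0.570% to 0.718% in U-937. The 6 libraries of each line did not overlap in this share.

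The proteasome genes differed between the lines in both directions. Among the 43 genes tested with DMSO, 20 were higher in U-937 than in THP-1, or 46.5%, where 22.0% of all 14617 genes tested were higher, and 4 genes, or 9.3%, were lower, where 25.4% of all genes were. With honokiol, in libraries that the DMSO comparison did not use, 21 of 43 were higher against 26.8% of all 15135 genes, and 8 were lower against 30.3% of all genes. The median log2 fold change of U-937 over THP-1 was 0.45 for these genes with DMSO and 0.42 with honokiol, and -0.04 and -0.03 for all genes tested. FPKM ranges of the lines did not overlap for 23 higher and 3 lower genes with DMSO, where 28.9% and 28.8% of all genes were so placed. With honokiol this held for 25 higher and 7 lower genes, where 34.7% and 31.1% of all genes were so placed. PSMA8 is among the higher genes in each of these counts and in those below. It passed the limit for testing, 0.5 FPKM in at least 3 libraries, only through U-937, so its direction was fixed by that limit.

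The line differences pointed the same way in both treatments for the 22 genes called in both (adjusted p under 0.05). These were 91.7% of the genes called with DMSO and 75.9% of those called with honokiol. Of all genes tested, 6920 of 14617 were called with DMSO and 8638 of 15135 with honokiol, and their overlap was not computed. Whether this agreement is particular to the proteasome genes was therefore not tested. Of the 22, 18 were higher in U-937: the alpha subunits PSMA1, PSMA4 and PSMA8, the beta subunits PSMB2 and PSMB7, the ATPases PSMC1, PSMC2 and PSMC4, the ubiquitin receptor ADRM1, the lid subunits PSMD6, PSMD7, PSMD8, PSMD11, PSMD13, PSMD14 and SEM1, the activator PSME4 and the inhibitor PSMF1. The other 4, lower in U-937, were the immunosubunits PSMB9 and PSMB10 and both PA28 subunits, PSME1 and PSME2. Across the 42 genes other than PSMA8, the line difference with DMSO and that with honokiol had a Pearson r of 0.91 and a Spearman rho of 0.86, a description over genes of the same 2 lines.

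**Figure D1:**
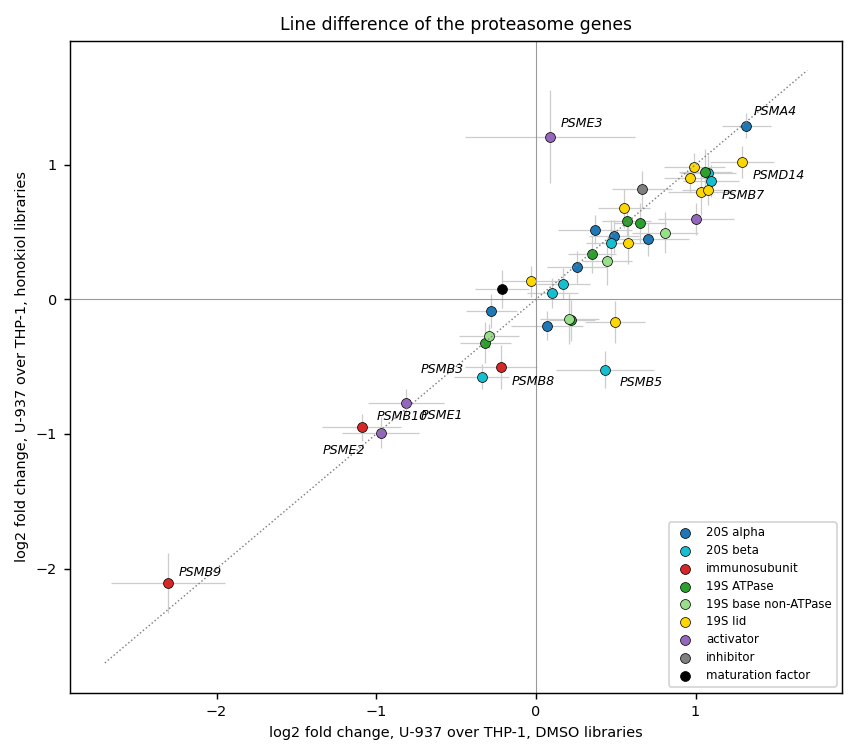
Log2 fold change of U-937 over THP-1 for 42 proteasome genes, in the DMSO libraries on the x axis and in the honokiol libraries on the y axis, coloured by role, with bars for the standard error and a dotted line of equality. Immunosubunits and PA28 subunits lie in the lower left quadrant, PSMB9 farthest at -2.30 and -2.11, and most 19S and 20S genes lie in the upper right.

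The alpha subunits form the outer rings of the core, which gate the entry of substrate. PSMA4 had the largest difference in favour of U-937 among the genes detected in both lines. Its level was 12.8, 10.97 and 12.4 FPKM in THP-1 with DMSO and 12.4, 11.2 and 12.5 FPKM with honokiol. In U-937 it was 29.4, 31.8 and 32.8 FPKM with DMSO and 29.99, 33.1 and 31.4 FPKM with honokiol. Every U-937 library thus lay above every THP-1 library, with log2 fold changes of 1.32 ± 0.15 (SE, 3 libraries a group, adjusted p = 0.000196) with DMSO and 1.29 ± 0.09 (adjusted p = 3.66e-05) with honokiol. PSMA1 was higher in U-937 in both treatments, and PSMA2 and PSMA7 passed the test with honokiol alone.

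PSMA8 was detected in U-937 and at most in traces in THP-1. Its estimated counts were 0, 0 and 0 in THP-1 with DMSO and 0, 0 and 4 with honokiol, against 132, 316 and 488 in U-937 with DMSO and 642, 372 and 349 with honokiol. Set against 3 counts per library in THP-1, U-937 with DMSO was 98.9-fold higher in counts scaled to library size. This is not a lower bound, because 1 fragment is often worth more than 1 count in these data. The gene, at GRCh38 chr18:26133852-26193355 on the plus strand, overlaps the pseudogene DHFRP1 on the opposite strand over 559 bases, and DHFRP1 had a mean of 36.0 FPKM. The kit's strand information is not given in the sources used here, so reads of genes that overlap on opposite strands cannot be told apart.

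Among the constitutive beta subunits, PSMB7, which carries the trypsin-like activity, was higher in U-937. It stood at 25.9, 33.3 and 34.6 FPKM in THP-1 with DMSO and at 55.4, 80.8 and 72.0 FPKM in U-937 with DMSO, with no overlap. With honokiol the levels were 35.4, 37.8 and 36.6 FPKM in THP-1 and 61.4, 76.7 and 78.3 FPKM in U-937. The log2 fold changes were 1.10 ± 0.18 (adjusted p = 0.00108) and 0.88 ± 0.12 (adjusted p = 0.000605).

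PSMB2, a non-catalytic ring subunit, showed a line difference of similar size. Its levels were 33.0, 33.1 and 30.5 FPKM in THP-1 and 78.5, 70.8 and 62.0 FPKM in U-937 with DMSO, and 33.3, 33.5 and 29.7 FPKM against 54.2, 69.5 and 74.4 FPKM with honokiol. The lines did not overlap, and the log2 fold changes were 1.08 ± 0.18 (adjusted p = 0.0012) and 0.94 ± 0.14 (adjusted p = 0.000915). PSMB6, the caspase-like subunit, was at 26.9, 29.2 and 34.9 FPKM in THP-1 and 41.8, 45.9 and 42.6 FPKM in U-937 with DMSO (log2 fold change 0.47 ± 0.15, adjusted p = 0.0345). With honokiol it was at 29.03, 33.9 and 28.1 FPKM and at 35.9, 54.2 and 40.7 FPKM, and the difference of 0.42 ± 0.17 did not pass (adjusted p = 0.0653). In both treatments the ranges of PSMB6 did not overlap between lines. PSMB1 and PSMB4 passed in neither treatment, and PSMB3 was lower in U-937 with honokiol alone (-0.58 ± 0.09, adjusted p = 0.00143).

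Of the 3 immunosubunits, PSMB9 and PSMB10 had the opposite line difference in both treatments. PSMB9, the immunosubunit that takes the place of PSMB6, stood at 8.35, 16.0 and 17.8 FPKM in THP-1 with DMSO and at 1.86, 2.55 and 4.41 FPKM in U-937 with DMSO. With honokiol it stood at 22.7, 21.8 and 21.0 FPKM in THP-1 and at 7.25, 5.22 and 3.83 FPKM in U-937. No U-937 library reached the lowest THP-1 library, which was DMSO library 1. PSMB9 was lower in U-937 by a log2 fold change of -2.30 ± 0.35 (adjusted p = 0.000875) with DMSO and -2.11 ± 0.23 (adjusted p = 0.000194) with honokiol.

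PSMB10, which replaces PSMB7, was at 16.0, 25.8 and 31.9 FPKM in THP-1 and 9.32, 12.6 and 13.8 FPKM in U-937 with DMSO. With honokiol it was at 32.1, 33.9 and 33.8 FPKM and at 18.4, 19.1 and 17.8 FPKM. Within each treatment the lines did not overlap (-1.09 ± 0.25, adjusted p = 0.0068, and -0.95 ± 0.10, adjusted p = 0.000176), but U-937 with honokiol lay above DMSO library 1 of THP-1. PSMB8, which replaces PSMB5, overlapped between lines in both treatments. Its levels were 20.2, 34.6 and 33.5 FPKM in THP-1 and 20.4, 24.97 and 33.1 FPKM in U-937 with DMSO, and 40.1, 39.3 and 32.0 FPKM against 32.4, 29.8 and 22.2 FPKM with honokiol. Its difference was -0.22 ± 0.23 (adjusted p = 0.458) with DMSO and -0.50 ± 0.16 (adjusted p = 0.031) with honokiol, and the second call was lost under 8 of 14 other settings. The DMSO difference of PSMB8 was -0.40 without DMSO library 1 of THP-1 and -0.10 without that of U-937.

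PSMB8 and PSMB9 lie in the MHC class II region, with TAP1, at GRCh38 chr6:32845209-32853978, between PSMB8 and the RefSeq start of PSMB9. The deposited annotation lists PSMB9 at chr6:32844136-32859851, across all 8770 bases of TAP1 on the opposite strand. By this long interval PSMB9 also shares 544 bases with PSMB8 on opposite strands. TAP1 was itself lower in U-937 (-0.83 ± 0.16, adjusted p = 0.00326, with DMSO and -0.87 ± 0.10, adjusted p = 0.000263, with honokiol). On its own strand the listed PSMB9 gene shares 2365 bases with the antisense transcript PSMB8-AS1. PSMB8-AS1 had a mean of 4.35 FPKM, above the mean of 2.94 FPKM for PSMB9 in U-937 with DMSO. The part of TAP1, PSMB8 or PSMB8-AS1 reads in the PSMB9 values was not tested.

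The 4 genes lower in U-937 in both treatments are shown by their promoters, since their direction was opposite to that of most of the complex. The sequences are RefSeq's for GRCh38.p14, 250 bases before and 50 after the start, read along the gene's strand. They are chr6:32853942-32854241 on the plus strand for PSMB9, chr16:67936801-67937100 on the minus strand for PSMB10, chr14:24135944-24136243 on the plus strand for PSME1 and chr14:24146561-24146860 on the minus strand for PSME2. Capitals mark matches on either strand to the core of the interferon-stimulated element (GAAA, any 2 bases, GAAA), to TGACNNNGC, the core of the antioxidant response element, or to CCAAT.
PSMB9: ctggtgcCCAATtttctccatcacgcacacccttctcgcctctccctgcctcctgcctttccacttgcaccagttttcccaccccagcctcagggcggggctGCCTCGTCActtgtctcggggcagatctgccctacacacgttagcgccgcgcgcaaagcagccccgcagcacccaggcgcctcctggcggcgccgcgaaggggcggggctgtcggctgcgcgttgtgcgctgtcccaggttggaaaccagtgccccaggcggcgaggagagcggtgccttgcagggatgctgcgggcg
PSMB10: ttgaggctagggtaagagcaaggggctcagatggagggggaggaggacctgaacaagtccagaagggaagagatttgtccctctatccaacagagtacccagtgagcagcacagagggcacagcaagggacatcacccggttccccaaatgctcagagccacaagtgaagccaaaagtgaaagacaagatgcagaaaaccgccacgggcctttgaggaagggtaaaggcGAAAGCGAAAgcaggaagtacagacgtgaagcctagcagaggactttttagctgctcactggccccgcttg
PSME1: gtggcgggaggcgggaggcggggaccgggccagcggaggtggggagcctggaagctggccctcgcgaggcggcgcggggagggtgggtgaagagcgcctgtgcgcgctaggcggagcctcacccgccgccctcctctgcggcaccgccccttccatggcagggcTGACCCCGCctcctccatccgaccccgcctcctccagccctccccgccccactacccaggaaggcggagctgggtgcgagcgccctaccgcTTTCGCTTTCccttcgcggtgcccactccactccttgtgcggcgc
PSME2: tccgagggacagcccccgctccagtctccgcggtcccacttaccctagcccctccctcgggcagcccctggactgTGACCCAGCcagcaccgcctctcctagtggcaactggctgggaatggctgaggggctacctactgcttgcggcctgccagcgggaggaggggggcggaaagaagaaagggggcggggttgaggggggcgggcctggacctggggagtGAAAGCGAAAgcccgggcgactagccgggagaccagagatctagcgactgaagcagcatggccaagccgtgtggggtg

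Promoters were found for 39 of the 44 genes, and not for PSMA7, PSMB1, PSMB6, PSMB7 and PSMD4. The interferon-stimulated core occurred in PSMB10 at -21 to -12 from the start, in PSME2 at -28 to -19 and, on the opposite strand, in PSME1 at 6 to 15, and not in this window of PSMB8 or PSMB9. Of the other 34 genes, 2 (PSMA4 and PSMB4) held it, or 5.88%, and 3.65% of all 27305 promoters did. TGACNNNGC was in 10 of 39 promoters, or 25.6%, against 13.6% of all, and CCAAT was in 18 of 39, or 46.2%, against 35.7% of all. Binding of a factor was not measured.

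Ratios of each immunosubunit to its constitutive partner, taken within a library from FPKM, were compared over the 12 libraries. PSMB9 to PSMB6 was 0.310, 0.549 and 0.510 in THP-1 with DMSO, 0.781, 0.643 and 0.749 with honokiol, 0.0445, 0.0556 and 0.103 in U-937 with DMSO and 0.202, 0.0963 and 0.0941 with honokiol. All 6 U-937 libraries lay below all 6 THP-1 libraries, and the mean log2 ratio of U-937 minus that of THP-1, within treatments, was -2.68 (exact permutation p = 0.005, the smallest that the 400 arrangements allow, and 0.0225 after Benjamini-Hochberg adjustment over 9 tests). PSMB10 to PSMB7 was 0.619, 0.774 and 0.921 in THP-1 with DMSO and 0.905, 0.899 and 0.923 with honokiol. In U-937 it was 0.168, 0.156 and 0.191 with DMSO and 0.300, 0.249 and 0.227 with honokiol. This ratio too was without overlap between lines, at a difference of -1.99 on the log2 scale (exact permutation p = 0.005, adjusted 0.0225). PSMB8 to PSMB5 overlapped, at a difference of -0.36 (exact permutation p = 0.19, adjusted 0.300).

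**Figure D2:**
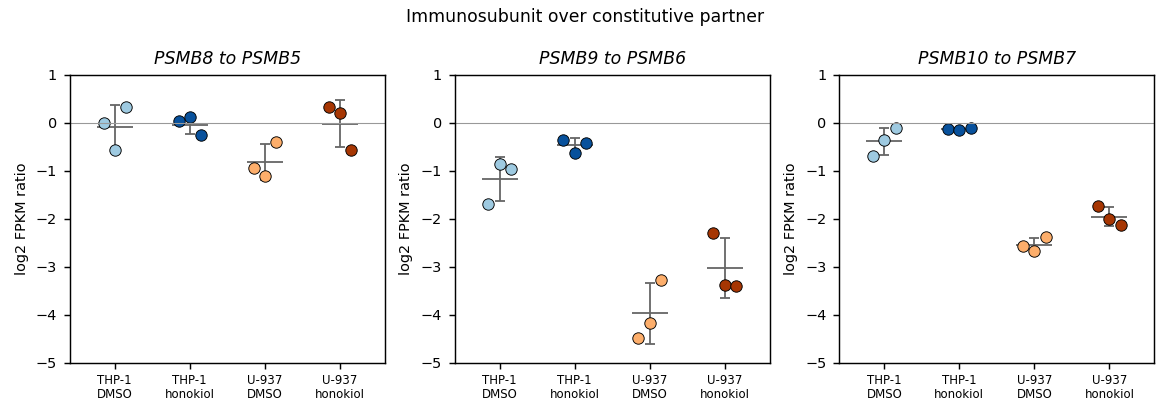
Log2 FPKM ratio of each immunosubunit to the constitutive subunit it replaces, by group, with 1 point a library and bars for the mean and SD of 3 libraries. PSMB9 to PSMB6 and PSMB10 to PSMB7 lie lower in U-937 in every library, and PSMB8 to PSMB5 overlaps between the lines.

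As a share of the summed FPKM of the 6 catalytic beta genes, the 3 immunosubunits made up 37.8% to 47.8% in THP-1 and 18.1% to 32.0% in U-937. In U-937 with DMSO the shares were 18.8%, 18.1% and 24.4%, and with honokiol 32.0%, 25.6% and 22.4%. The treatments overlapped in U-937 by the lowest honokiol library, and in THP-1 (37.8%, 40.1% and 46.4% against 47.8%, 46.8% and 45.7%) by the highest DMSO library.

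The PA28 subunits were lower in U-937 too. PSME1, which together with PSME2 forms the cytosolic PA28 ring, was at 32.8, 56.3 and 70.7 FPKM in THP-1 and 27.9, 31.6 and 34.0 FPKM in U-937 with DMSO. Its ranges overlapped through DMSO library 1 of THP-1 (log2 fold change -0.82 ± 0.24, adjusted p = 0.0217), and the call was lost under 7 of 15 other settings, at most at an adjusted p of 0.0849. With honokiol, PSME1 was at 54.8, 52.7 and 54.9 FPKM in THP-1 and 36.3, 35.3 and 30.7 FPKM in U-937, with no overlap (-0.77 ± 0.10, adjusted p = 0.000523).

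PSME2 was at 19.7, 21.1 and 27.6 FPKM in THP-1 and 7.63, 14.3 and 14.3 FPKM in U-937 with DMSO, and at 27.4, 30.9 and 28.8 FPKM against 16.2, 17.2 and 13.7 FPKM with honokiol. Every U-937 library lay below every THP-1 library (-0.97 ± 0.24, adjusted p = 0.0101, and -0.99 ± 0.11, adjusted p = 0.000273). PSME1 and PSME2 lie on chromosome 14 on opposite strands.

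**Figure D3:**
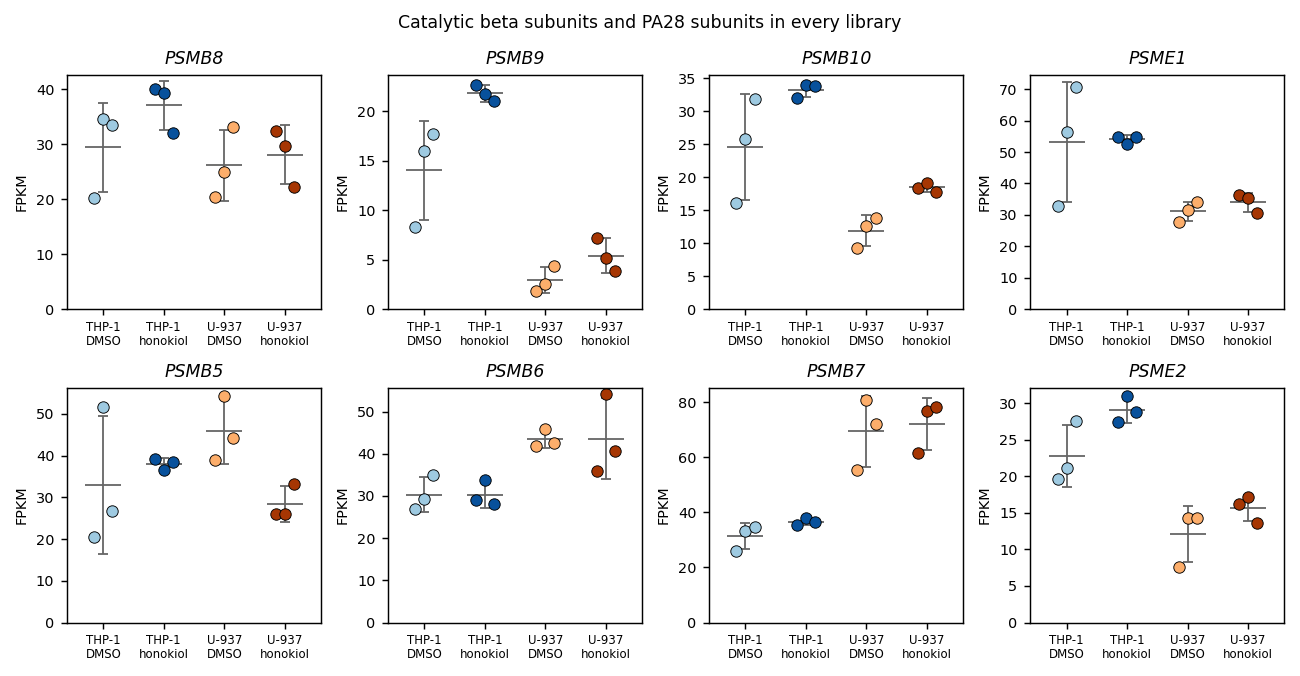
FPKM of the 3 immunosubunits above their constitutive partners, and of PSME1 and PSME2, by group, with 1 point a library and bars for the mean and SD of 3 libraries. PSMB9, PSMB10 and PSME2 lie lower in U-937 and PSMB7 higher, while PSMB5 and PSMB8 overlap with DMSO.

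PSME4, the large PA200 activator, was higher in U-937. It stood at 8.68, 5.23 and 5.84 FPKM in THP-1 and 13.2, 15.2 and 13.1 FPKM in U-937 with DMSO, and at 6.09, 7.40 and 7.93 FPKM against 11.1, 11.6 and 12.03 FPKM with honokiol. The lines did not overlap (1.001 ± 0.24, adjusted p = 0.00839, and 0.60 ± 0.12, adjusted p = 0.00393). PSME3, the nuclear PA28 gamma, was too variable with DMSO to set the lines apart: 44.2, 27.4 and 9.90 FPKM in THP-1 and 35.0, 39.5 and 16.3 FPKM in U-937 (0.09 ± 0.53, adjusted p = 0.907). With honokiol it was at 8.80, 9.48 and 11.3 FPKM and at 31.8, 12.04 and 29.2 FPKM, without overlap (1.21 ± 0.34, adjusted p = 0.0184), and the call was lost under 5 of 14 other settings. The listed PSME3 gene overlaps BECN1, on the opposite strand, over 8948 bases, and BECN1 had a mean of 7.67 FPKM.

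The 19S lid removes ubiquitin chains from the substrate. Of its 9 genes, 7 were higher in U-937 in each treatment, where 22.0% of all genes tested were with DMSO and 26.8% with honokiol. The exceptions were PSMD3 and PSMD12. The median log2 fold change of the lid genes was 0.97 with DMSO and 0.80 with honokiol, against -0.04 and -0.03 for all genes. PSMD14, the lid's deubiquitinase, was at 7.24, 8.13 and 9.39 FPKM in THP-1 and 16.0, 26.9 and 20.1 FPKM in U-937 with DMSO. With honokiol it was at 9.46, 10.8 and 10.8 FPKM and at 20.0, 22.3 and 25.1 FPKM. U-937 was above THP-1 in every library (1.29 ± 0.20, adjusted p = 0.000947, and 1.02 ± 0.12, adjusted p = 0.000295).

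PSMD3, a lid scaffold, was at 42.4, 42.0 and 42.7 FPKM in THP-1 and 73.0, 60.1 and 51.9 FPKM in U-937 with DMSO, which did not overlap, though the test did not pass (0.50 ± 0.19, adjusted p = 0.0596). With honokiol its levels crossed, at 49.3, 51.1 and 49.1 FPKM in THP-1 and 36.1, 52.9 and 53.6 FPKM in U-937 (-0.17 ± 0.16, adjusted p = 0.387).

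The ATPase ring of the base unfolds the substrate. Its genes PSMC1, PSMC2 and PSMC4 were higher in U-937 in both treatments, with PSMC4 at log2 fold changes of 1.06 ± 0.16 (adjusted p = 0.000888) and 0.95 ± 0.17 (adjusted p = 0.00251), and PSMC3, PSMC5 and PSMC6 passed in neither. PSMC1 has 7 named pseudogenes in the table, with up to 4.10 FPKM, so its own level is less certain. Of the other base subunits, ADRM1 was higher in both treatments (0.81 ± 0.21, adjusted p = 0.0122, and 0.50 ± 0.15, adjusted p = 0.0254). With honokiol, 1 of these 4 genes was called lower in U-937, where 30.3% of all genes were. Their median log2 fold change was then 0.07, with 2 above and 2 below 0. PSMD4 with honokiol was at 65.3, 65.7 and 68.4 FPKM in THP-1 and at 54.1, 63.0 and 60.0 FPKM in U-937. PSMD2, a scaffold subunit, was at 38.1, 36.1 and 41.4 FPKM in THP-1 and 55.0, 58.1 and 50.3 FPKM in U-937 with DMSO, without overlap (0.45 ± 0.16, adjusted p = 0.0426), and was at 35.5, 38.3 and 36.2 FPKM against 35.3, 52.1 and 56.1 FPKM with honokiol. The DMSO call for PSMD2 was lost under 7 of 15 other settings, also without both DMSO libraries 1 (adjusted p = 0.0636).

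PSMF1, known as the inhibitor PI31, was higher in U-937 at 0.66 ± 0.19 (adjusted p = 0.0188) with DMSO and 0.82 ± 0.14 (adjusted p = 0.00181) with honokiol. POMP, the chaperone that brings the beta ring together, differed in neither by the test (-0.21 ± 0.17, adjusted p = 0.337, and 0.07 ± 0.14, adjusted p = 0.682).

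**Figure D4:**
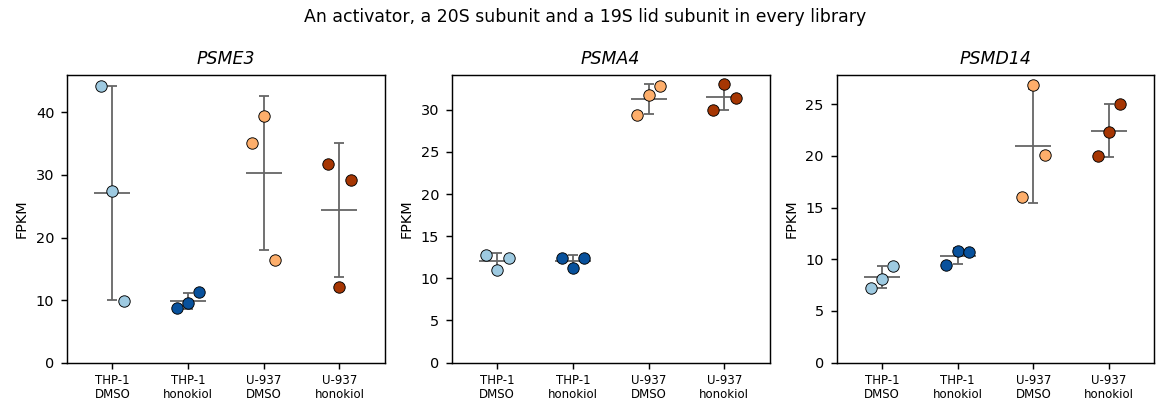
FPKM of the activator PSME3, the alpha subunit PSMA4 and the lid deubiquitinase PSMD14 by group, with 1 point a library and bars for the mean and SD of 3 libraries. PSMA4 and PSMD14 separate the lines in every library, while PSME3 ranges from 9.90 to 44.2 FPKM within THP-1 with DMSO.

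Honokiol against DMSO gave no call among these genes in either line. In THP-1, 0 of 42 genes passed an adjusted p under 0.05 in edgeR, where 6 of all 14600 genes, or 0.0411%, did. At an unadjusted p under 0.05, 1 gene was higher and 2 were lower, where 6.84% and 6.22% of all genes were. FPKM of honokiol and DMSO libraries did not overlap for 6 higher genes (PSMA5, PSMB7, PSMB9, PSMB10, PSMD3 and PSMD14) and 2 lower ones (PSMD8 and PSMD12), where 13.0% and 7.62% of all genes were so placed. The median log2 fold change was 0.014 for the 42 genes and -0.001 for all genes. Standard errors of the log2 fold changes ran from 0.12 to 0.48, with a median of 0.14, and 40 of the 42 estimates lay within 0.5 of 0.

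In U-937, 0 of 43 genes passed in edgeR, where 13 of all 13726 genes, or 0.0947%, did. At an unadjusted p under 0.05, 2 genes were higher and 3 were lower, where 8.25% and 8.44% of all genes were. Ranges did not overlap for 2 higher genes (PSMA6 and PSMB10) and 2 lower ones (PSMB5 and PSME4), where 16.7% and 7.50% of all genes were so placed. The median was -0.08 against 0.02 for all genes, with 26 of 43 estimates below 0, where 52.0% of all genes tested were above 0. The median of the proteasome genes was 0.02 without honokiol library 1, the library in which 33 of 42 genes were lowest of the 3. DESeq2 called 1 gene in each line, PSME3 in THP-1 (adjusted p = 0.0186) and PSMB5 in U-937 (adjusted p = 0.00512), where its calls took in 3.46% of the genes tested for THP-1 and 5.76% for U-937.

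**Figure D5:**
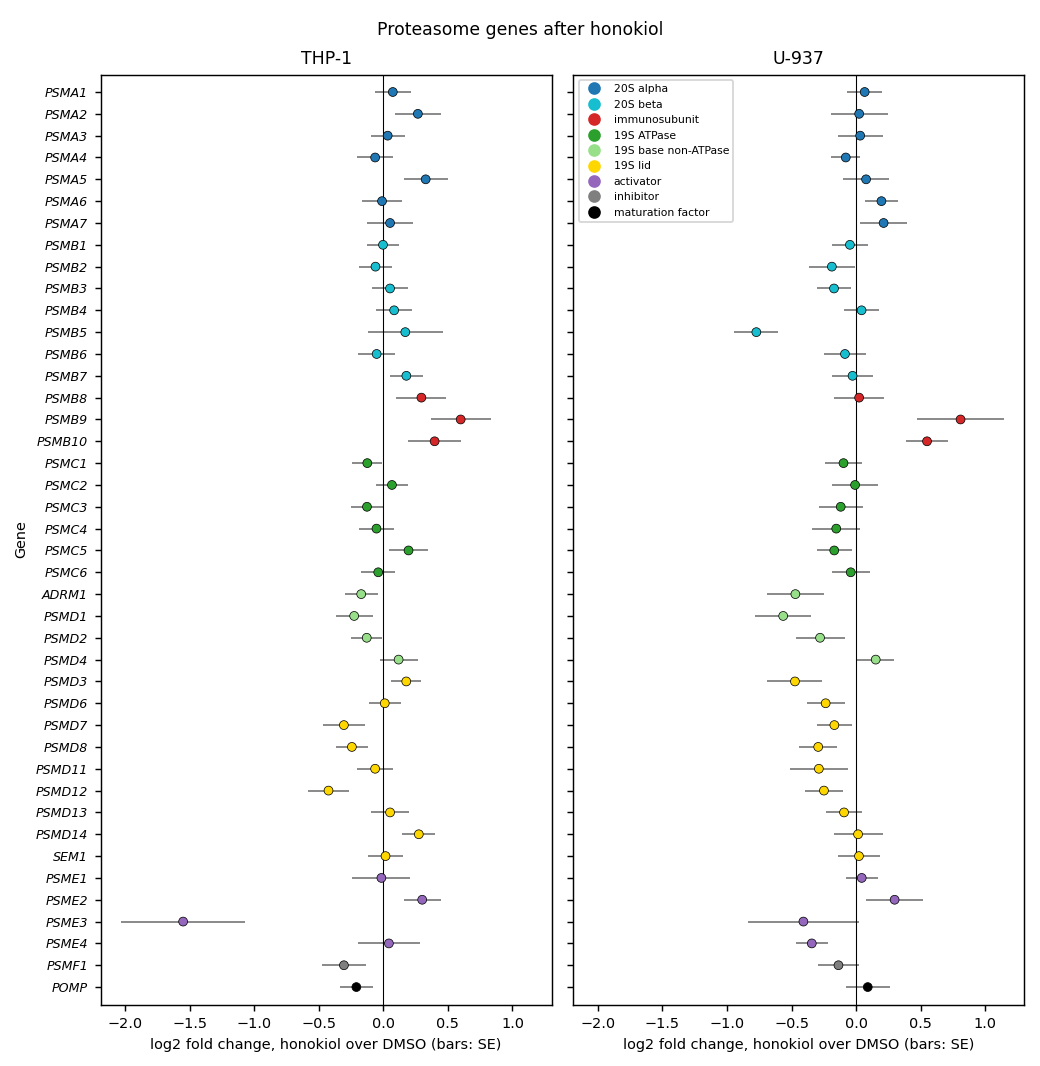
Log2 fold change of honokiol over DMSO for 42 proteasome genes in THP-1 on the left and U-937 on the right, coloured by role, with bars for the standard error. Most estimates lie within 0.5 of 0, and PSME3 in THP-1 lies at -1.55 and PSMB5 in U-937 at -0.77, neither called in edgeR.

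The immunosubunits PSMB9 and PSMB10 had the highest estimates with honokiol among the genes detected in both lines, and none passed the test. PSMB9 had a log2 fold change of 0.60 ± 0.23 (adjusted p = 0.341) in THP-1, where all 3 honokiol libraries lay above the DMSO libraries, and of 0.81 ± 0.34 (adjusted p = 0.283) in U-937, where the highest DMSO library, at 4.41 FPKM, exceeded the lowest honokiol library, at 3.83 FPKM. PSMB10 was at 0.40 ± 0.21 (adjusted p = 0.445) in THP-1 and 0.55 ± 0.16 (adjusted p = 0.174) in U-937, where its honokiol libraries lay above all DMSO libraries in each line. DMSO library 1 was the lowest DMSO library for both genes in both lines. Without it, the estimates were 0.36 for PSMB9 and 0.20 for PSMB10 in THP-1 and 0.58 and 0.42 in U-937, and PSMB10 was at 0.60 in THP-1 without DMSO library 3. PSMB8 was at 0.29 ± 0.19 (adjusted p = 0.532) and 0.02 ± 0.19 (adjusted p = 0.969). Pair ratios within a line could not pass the test, since 3 against 3 libraries allow no exact p below 0.1. Honokiol minus DMSO, the mean log2 ratio of PSMB9 to PSMB6 differed by 0.71 for THP-1 and by 0.95 for U-937, and these differences were 0.26 and 0.59 for PSMB10 to PSMB7, and 0.05 and 0.80 for PSMB8 to PSMB5.

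PSMB5, the chymotrypsin-like subunit that proteasome inhibitors such as bortezomib bind, was at 39.0, 54.3 and 44.1 FPKM with DMSO and 26.0, 25.9 and 33.2 FPKM with honokiol in U-937. All honokiol libraries lay below all DMSO libraries, at a log2 fold change of -0.77 ± 0.17 (adjusted p = 0.105), with adjusted p from 0.00512 to 0.319 over the other settings. In THP-1 its levels were 20.4, 51.7 and 26.7 FPKM with DMSO and 39.2, 36.5 and 38.5 FPKM with honokiol, so that the honokiol libraries fell inside the DMSO range (0.17 ± 0.29, adjusted p = 0.822). Between lines it was lower in U-937 with honokiol (-0.52 ± 0.14, adjusted p = 0.0129) and overlapped with DMSO (0.43 ± 0.31, adjusted p = 0.281).

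PSME3 had the lowest estimate in THP-1, at -1.55 ± 0.48 (adjusted p = 0.284). Its honokiol libraries, from 8.80 to 11.3 FPKM, surrounded the lowest DMSO library at 9.90 FPKM, and without DMSO library 1, the highest, the estimate was -0.93. In U-937 it was -0.41 ± 0.43 (adjusted p = 0.676). PSME1 and PSME2 stood at -0.01 ± 0.22 and 0.30 ± 0.14 in THP-1 and at 0.04 ± 0.13 and 0.30 ± 0.22 in U-937, and PSME4 at 0.04 ± 0.24 and -0.34 ± 0.12, all short of the test.

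Among lid genes, PSMD12 was at 17.5, 14.3 and 14.98 FPKM with DMSO and 12.4, 13.2 and 10.8 FPKM with honokiol in THP-1, without overlap (-0.42 ± 0.16, adjusted p = 0.335). PSMD7 was at 20.6, 18.8 and 17.6 FPKM and at 16.1, 18.1 and 13.9 FPKM there, with overlap (-0.31 ± 0.16, adjusted p = 0.452). Without DMSO library 1 these THP-1 estimates were -0.28 for PSMD12 and -0.19 for PSMD7. In U-937 the same genes stood at -0.25 ± 0.15 and -0.17 ± 0.14, with levels of 13.4, 18.98 and 15.5 FPKM against 13.3, 14.5 and 15.03 FPKM for PSMD12 and 28.2, 31.2 and 27.8 FPKM against 23.9, 28.1 and 30.5 FPKM for PSMD7. PSMD3 was at -0.47 ± 0.21 (adjusted p = 0.315) in U-937 and 0.18 ± 0.12 (adjusted p = 0.531) in THP-1. Its U-937 estimate was -0.30 without DMSO library 1 and -0.31 without honokiol library 1.

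In the base of the 19S particle, the scaffold PSMD1 was at 25.8, 31.9 and 22.8 FPKM with DMSO and 14.4, 19.4 and 24.1 FPKM with honokiol in U-937 (-0.57 ± 0.22, adjusted p = 0.252). In THP-1 it was at 24.4, 21.8 and 20.7 FPKM and at 20.9, 19.8 and 18.9 FPKM (-0.23 ± 0.14, adjusted p = 0.516). The treatments overlapped in both lines. All 6 ATPase estimates were below 0 in U-937, from -0.17 to -0.01, and 4 of 6 were in THP-1, none past the test. Honokiol library 1 was the lowest honokiol library of U-937 for each of these 6 genes. Their summed FPKM in U-937 was 171, 201 and 169 with DMSO and 142, 200 and 193 with honokiol. The ATPase estimates for honokiol were not refitted without that library.

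Of the alpha subunits, PSMA5 was at 9.08, 14.3 and 15.2 FPKM with DMSO and 16.5, 17.1 and 16.2 FPKM with honokiol in THP-1 (0.33 ± 0.17, adjusted p = 0.444), and at 10.1, 16.8 and 14.8 FPKM against 13.7, 16.1 and 16.8 FPKM in U-937 (0.08 ± 0.18, adjusted p = 0.867). The treatments did not overlap in THP-1 and overlapped in U-937. Without DMSO library 1 the THP-1 estimate of PSMA5 was 0.17. PSMA8 in U-937, at 1.02, 2.0 and 3.34 FPKM with DMSO and 4.71, 2.85 and 2.64 FPKM with honokiol, overlapped too (0.61 ± 0.42, adjusted p = 0.499). Its estimate was 0.29 without DMSO library 1, 0.30 without honokiol library 1 and 1.05 without DMSO library 3.

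Estimates for honokiol had the same sign in both lines for 30 of 42 genes, 13 above and 17 below 0, a count of estimates that did not pass. The share of all genes with the same sign was not computed. Whether this count is particular to the proteasome genes was therefore not tested. The difference of the honokiol responses between the lines was tested over all 12 libraries. It gave 0 calls among 43 genes in edgeR and in DESeq2, where 18 of all 16283 genes, or 0.111%, were called in edgeR and 1.50% in DESeq2. At an unadjusted p under 0.05, 0 genes were higher, where 4.82% of all genes were, and 2 were lower, where 4.54% of all genes were. These were PSMD3 (-0.66 ± 0.25, adjusted p = 0.436) and PSMB5 (-0.95 ± 0.37, adjusted p = 0.447), the response in U-937 minus that in THP-1.

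Genes that work with the proteasome were given for comparison, and all 48 passed the limit on low values in every comparison. With honokiol, edgeR called 0 of them in either line, and at an unadjusted p under 0.05 there were 5 higher and 0 lower in THP-1, where 6.84% and 6.22% of all genes were, and 4 higher and 3 lower in U-937, where 8.25% and 8.44% were. Between lines, 15 of the 48 were higher and 12 lower in U-937 with DMSO, where 22.0% and 25.4% of all genes were, and 16 and 11 with honokiol, where 26.8% and 30.3% were. Of 8 assembly chaperones, which help put the complex together, 5 were higher in U-937 with DMSO and 6 with honokiol, and none was lower. PSMD5, a chaperone of the base, was at 0.68 ± 0.17 (adjusted p = 0.0105) and 0.63 ± 0.12 (adjusted p = 0.00362). PSMG1, named after its values were seen, had the largest such difference, at 2.39 ± 0.16 (adjusted p = 1.12e-05) and 2.25 ± 0.12 (adjusted p = 1.27e-05). Of 5 proteasome-associated proteins, 4 were higher in each treatment, among them the deubiquitinase USP14 (1.20 ± 0.21, adjusted p = 0.00198, and 1.07 ± 0.13, adjusted p = 0.000384). Of 8 shuttle and unfoldase genes, 3 were higher in each treatment and none was lower.

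Of 14 antigen processing genes, 9 were lower in U-937 with DMSO and 8 with honokiol, and none was higher. Among them, the peptide transporter TAP1 was lower in both treatments, and its partner TAP2 was at -0.31 ± 0.15 (adjusted p = 0.115) with DMSO and -0.71 ± 0.12 (adjusted p = 0.00163) with honokiol. Of 7 genes for transcription of the proteasome genes and its processing, 2 were higher and 1 was lower in each treatment. NFE2L1, the factor that raises proteasome genes when the protease is inhibited, was lower in U-937 with DMSO (-0.56 ± 0.18, adjusted p = 0.0303) and at -0.23 ± 0.16 (adjusted p = 0.254) with honokiol. NFE2L2, the factor of the antioxidant response, was at 0.64 ± 0.25 (adjusted p = 0.0637) and 0.33 ± 0.13 (adjusted p = 0.0581). Of 6 ubiquitin and E1 genes, 1 was higher and 2 were lower in U-937 in each treatment, counts near those shares of all genes. In bulk RNA, a lower level in each cell and fewer cells with the transcript cannot be told apart.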

How the data were processed

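The authors' table gives every gene an FPKM and an estimated count per library. The deposited FPKM, written with 2 decimals, divide by transcript length and by sequencing depth. The deposited estimated counts are whole numbers that the authors did not normalize, and the value 4 (17264 cells) is far more frequent than 3 (6764) or 5 (4016), so that 1 fragment is often worth more than 1 count. The submitters' processing notes name Bowtie 0.12.2, HISAT2 2.0 and StringTie 1.3.0 and the build mm8, a mouse build. The coordinates in the table are human GRCh38: 22472 of 35762 genes found in GENCODE 29 had the same start and end. Of the 44 proteasome genes, all 44 overlapped their GENCODE 29 gene, but only 9 had identical coordinates. The annotation used and the kit's strand information are not given in the sources used here. Labels and methods name different sequencers and RNA amounts, and the series text describes a microarray.

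Genes with at least 0.5 FPKM in at least 3 of the libraries compared (6, or 12 for the difference between lines) were tested by edgeR 4.0.16's quasi-likelihood F-test on the estimated counts, after TMM scaling and without a replicate term, and p-values were adjusted by Benjamini-Hochberg over all genes tested. A gene was called at an adjusted p under 0.05. The 2 line comparisons share no library, and each shares its libraries with the honokiol comparisons. Pair ratios of FPKM were compared by two-sided exact permutation tests over libraries. R 4.3.3, limma 3.58.1, DESeq2 1.42.0, Python 3.11.15 and scipy 1.17.1 were used. Standard errors come from the edgeR quasi-likelihood fit and take in the spread between these libraries. Estimated counts overstate the number of fragments.

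The test was first run on simulated data with known changes. At a log2 fold change of 1 in size, it called 49 of 99 changed genes for honokiol in THP-1 and 46 of 93 in U-937. For the difference of the honokiol responses between lines it called 11 of 105. At 2 in size it called 100 of 101, 102 of 107 and 78 of 95, and 15, 14 and 7 unchanged genes were called. Between lines it called 28 of 104 at 1 in size with DMSO and 61 of 97 with honokiol. At 2 in size these were 93 of 96 and 103 of 103, with 5 and 17 unchanged genes called. The changed genes were drawn only from the more abundant genes, so these counts do not hold for low genes such as PSMA8. A gene without a call may thus still have changed. Same-numbered libraries had deviations correlated at -0.16 to 0.11, so the numbers were not taken as pairs.

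Genes and lists were chosen with earlier results of these data known. Values in every library are given for PSMB5 to PSMB10, PSME1 to PSME4, the 3 highest and 3 lowest estimates of each honokiol comparison, and the 5 highest and 5 lowest among the genes called between lines with DMSO. Of related genes, NFE2L1, NFE2L2, TAP1, TAP2, POMP, USP14 and PSMD5 are named by rule. Of the 44 genes, 25 overlap another gene of the table, 12 of them on the same strand, and 8 have named pseudogenes there. Other size factors, no filter, DESeq2, limma on log2 FPKM, a replicate block, a limit of 1 on the log2 fold change, counts divided by 4, 1 fit of all libraries and leaving out libraries were tried.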

Additional observations from a re-analysis of the deposited data

How the results depend on the processing

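Under DESeq2, 1 proteasome gene was called with honokiol in each line, against 0 in edgeR, and the cause was not tested. The median honokiol log2 fold change in THP-1, 0.014 in edgeR, was 0.077 and 0.082 with limma on log2(FPKM + 0.5) and log2(FPKM + 0.1), where the median of all genes was 0.053 and 0.062. Requiring also a log2 fold change over 1 in size left 11 of 24 line calls with DMSO and 5 of 29 with honokiol. Shares of all genes under this and the other settings are not given here. Whether a change in these counts is particular to the proteasome genes therefore cannot be read from them. Without 1 library at a time, line calls numbered 18 to 22 with DMSO and 24 to 31 with honokiol, medians lay at 0.42 to 0.49 and 0.30 to 0.46, and honokiol medians lay at -0.02 to 0.04 in THP-1 and -0.12 to 0.02 in U-937. The median in THP-1 changed sign without DMSO library 1, and that in U-937 without honokiol library 1. The PSMB8 to PSMB5 ratio difference of honokiol minus DMSO in THP-1, 0.05, ran from -0.20 to 0.26, and was -0.20 without DMSO library 2 and -0.03 without honokiol library 2. Both line differences of the other pair ratios passed in all 12 fits. Without both DMSO libraries 1, chosen after seeing the data, 22 genes were called between lines with DMSO.

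With the replicate number as a block, 0 genes were called with honokiol in either line, and 24 and 27 between lines with DMSO and honokiol. Libraries share a number, not a known pairing.

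For single genes, 458 values kept direction and side of the threshold, 27 lost the call and 2 gained it. Read depth is unknown, since a fragment is worth more than 1 count.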

Other observations

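Some related genes had 1 library far from its group, given as values. B2M, the light chain of MHC class I, was at 12.5 FPKM in honokiol library 2 of U-937, against 87.2 and 94.2 FPKM in the other honokiol libraries. RPS27A, which encodes ubiquitin fused to a ribosomal protein, was at 47.1 FPKM in DMSO library 1 of THP-1 and at 60.6 FPKM in DMSO library 1 of U-937, whereas the other 10 libraries held at least 129.86 FPKM.

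ERAP1, the aminopeptidase that trims peptides for MHC class I, was at 12.9, 13.6 and 18.3 FPKM with DMSO and 24.7, 24.2 and 27.0 FPKM with honokiol in THP-1. In U-937 it was at 4.38, 5.28 and 4.14 FPKM and at 9.41, 9.17 and 9.80 FPKM. The treatments did not overlap in either line, and the log2 fold changes of 0.71 ± 0.15 (adjusted p = 0.162) and 0.95 ± 0.14 (adjusted p = 0.0624) did not pass. PSMD10, the assembly chaperone also known as gankyrin, was at 9.27, 14.0 and 15.4 FPKM with DMSO and 25.97, 23.4 and 24.8 FPKM with honokiol in U-937 (0.86 ± 0.18, adjusted p = 0.0974). In THP-1 it was at 7.64, 7.61 and 12.04 FPKM and at 8.13, 10.5 and 14.0 FPKM, with overlap. These genes were picked after their values were seen.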
